A study of Mus musculus with 6 samples.

Results

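The clustered protocadherins are cell-surface adhesion proteins of the cadherin superfamily, encoded in mouse by 3 neighbouring gene clusters, alpha, beta and gamma, on chromosome 18. Members were taken by symbol: each array probe was named through its transcript accession in the RefSeq gene table, and every gene whose symbol starts with Pcdha, Pcdhb, Pcdhga, Pcdhgb or Pcdhgc followed by a number was kept. That table lists 56 such genes, of which 33 had a probe on the array, 34 probes in all, among 45616 genes measured. The 33 comprised 5 of 12 alpha genes, 22 of 22 beta genes and 6 of 22 gamma genes, and the other 23 (7 alpha and 16 gamma) had no matched probe.

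The RNA came from tail tissue fibroblasts, cells grown out of minced tails of C57BL/6 mice, and was hybridised to 6 single-colour Agilent arrays, 2 for each of 3 groups. All 3 groups carried the same alleles, LH2F/F with CAG-Cre: floxed copies of the gene for lysyl hydroxylase 2 (LH2, gene Plod2), the enzyme that hydroxylates lysines in collagen telopeptides, and a Cre driven by the ubiquitous CAG promoter. LH2 cKO_no.1 cells (no.1 below) were in medium with tamoxifen and LH2 cKO_no.2 cells (no.2 below) in medium without it, both labelled as following 24 h of tamoxifen treatment, and the control was grown in medium that held no tamoxifen. The study's stated comparison is no.1 with no.2, and the control serves here as the untreated baseline of both. No group combined tamoxifen with an intact Plod2, so tamoxifen, Cre activity and loss of LH2 cannot be told apart. Whether replicate arrays represent separate cultures or animals is not stated in the labels, so p-values measure only the spread between these arrays. The names under which the arrays were deposited carry 0 h for both controls and, within no.1 and within no.2, 24 h for replicate 1 and 48 h for replicate 2, whereas the labels give 24 h throughout.

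Clustered protocadherins are known best from neurons, where each cell expresses its own small combination of isoforms and where like combinations on neighbouring branches drive self-avoidance. Each isoform has its own promoter. The alpha and gamma genes splice a variable exon, which encodes the extracellular and transmembrane parts, onto constant exons shared within their cluster, whereas each beta gene is a single exon. Promoter choice depends on binding of CTCF and cohesin and on looping to distant enhancers, and unused promoters are kept silent by DNA methylation, H3K9 methylation and the chromatin protein SMCHD1. Each probe was assigned here by the accession of 1 transcript. Probe positions within transcripts were not used here, and an alpha or gamma probe may read constant exons common to its cluster.

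Scaled to the 75th percentile of each array, as explained below, the targeted gene was lower in both tamoxifen-exposed groups. Plod2 had processed signals of 31.8 and 17.1 in no.1, 13.3 and 8.59 in no.2, and 42.1 and 34.9 in the control, and its scaled log2 fold change was -2.13 for no.1 (limma adjusted p = 0.00613) and -2.57 for no.2 (adjusted p = 0.00767) against the control. The arrays differed in overall brightness with group: the signal at the 75th percentile of probes was 95.95 and 85.06 in no.1, 55.07 and 56.87 in no.2, and 34.16 and 33.69 in the control. Levels below are therefore log2 processed signal minus the 75th percentile of the same array, called scaled log2 levels, and a gene counts as changed at a limma adjusted p under 0.05 over all 23058 genes tested. Relative to the spike-in probes, known RNAs added at labelling, that 75th percentile was 3.91 and 3.76 times the log2 mean of the 2 control arrays in no.1. In no.2 it was 1.99 and 2.98 times that mean. Against the control, the median log2 fold change of all genes was 1.82 for no.1 and 1.18 for no.2 when arrays were scaled to the spike-ins, beside -0.12 and -0.10 at the 75th percentile. The fold changes of Plod2 and every direction below are therefore relative to the bulk of the transcriptome unless the spike-ins are named. No spike-in value is given here for Plod2. Spike-in scaling adds the same amount to every gene's log2 fold change in a contrast, the amount by which the median moved. That amount is nearly as large as the Plod2 fall in no.1 and smaller than the fall in no.2. The size of the Plod2 fall, above all in no.1, therefore depends on the scaling. On the slide the control arrays shared one row and the exposed arrays another, so slide row and treatment cannot be told apart.

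Probe detection was uneven along the clusters. A probe counts as well above background when the scanner software flags most of its spots so. The flag is stricter than a spot merely brighter than the surround. In no.1, 15 and 16 of the 33 members were so, against 14 and 16 in no.2 and 11 and 11 in the control. The beta genes made most of that difference, with 12 and 13 of 22 in no.1, 11 and 12 in no.2, and 8 and 8 in the control. Detection was also broader over the whole array, at 51.4% and 51.7% of all genes in no.1, 46.6% and 46.7% in no.2, and 44.6% and 43.1% in the control, beside 45.5% and 48.5%, 42.4% and 48.5%, and 33.3% and 33.3% of the members.

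To be tested, a gene needed a probe that both arrays of some group measured well above background, and 15 members had one: Pcdha8 and Pcdha9; Pcdhb4, Pcdhb5, Pcdhb6, Pcdhb7, Pcdhb12, Pcdhb14, Pcdhb15, Pcdhb16, Pcdhb17, Pcdhb20, Pcdhb21 and Pcdhb22; and Pcdhga9. That is 45.5% of the members on the array, where 50.5% of all genes passed. The 18 members left out had processed signals of 0.9 to 6.44. Of these, 16 were well above background on no array, and Pcdhb2 and Pcdhga10 on 1 array each (no.1 replicate 2 and no.2 replicate 2). The detected beta genes sat in 3 stretches of the cluster, Pcdhb4 to Pcdhb7, Pcdhb12 to Pcdhb17 without Pcdhb13, and Pcdhb20 to Pcdhb22, and the 9 beta genes detected nowhere were Pcdhb1, Pcdhb3, Pcdhb8 to Pcdhb11, Pcdhb13, Pcdhb18 and Pcdhb19. No statement is made about genes without a signal, since a probe that does not rise above background gives only an upper limit. For members that passed only through the group where they were bright, the filter itself favoured a difference between groups. Pcdhb4, Pcdhb5 and Pcdhb7, with no control array well above background, and Pcdhb16 and Pcdhb20, with 1 of 2, passed in this way.

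**Figure D1:**
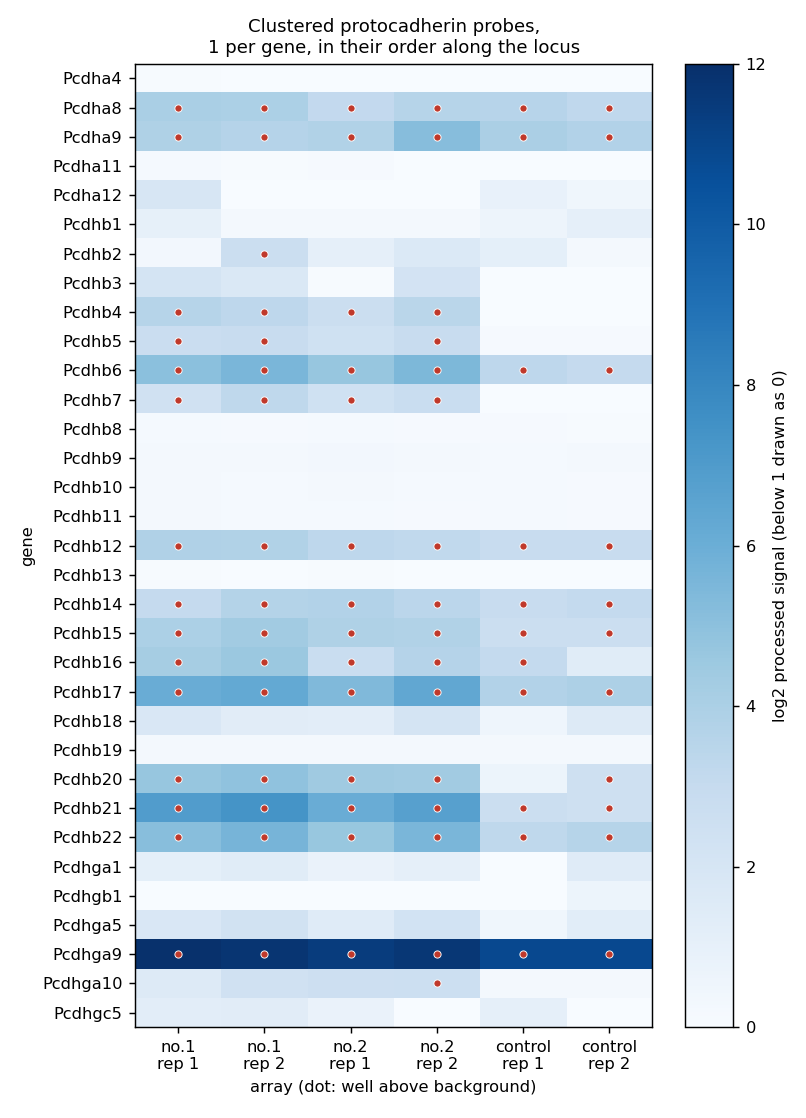
Processed signal (log2, colour) of 1 probe for each of the 33 clustered protocadherins on the array, top to bottom in their order along the chromosome, in the 2 no.1, 2 no.2 and 2 control arrays, left to right. Red dots mark a probe well above background: 12 and 13 of 22 beta genes carry one in no.1, 11 and 12 in no.2, and 8 and 8 in the control. Colour compares arrays along a row, not genes with each other.

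Among the members measurable on every array, Pcdhb21 rose in both groups against the control, Pcdhb6 and Pcdhb17 rose in no.2, and Pcdha8, Pcdha9 and Pcdhb14 fell in no.1. With the members that passed only through the exposed groups included, 5 of the 15 tested members were called higher and 3 lower in no.1, and 7 higher and none lower in no.2. Over all genes tested, 21.4% were called higher and 26.4% lower in no.1, and 12.1% higher and 16.2% lower in no.2, which is 47.8% and 28.3% in either direction. At an unadjusted p under 0.05 there were 9 of 15 members in each contrast, beside 56.7% of all genes in no.1 and 44.9% in no.2. The other calls were Pcdhb4, Pcdhb5, Pcdhb7 and Pcdhb20, called higher in both groups. Since these 4 could enter the test only by being bright in exposed cells, the counts with them are a description and support no statement about the beta cluster. The median log2 fold change of the 15 was 0.71 in no.1 and 0.96 in no.2, beside medians of -0.12 and -0.10 over all genes tested. It was 0.39 in no.1 without no.1 replicate 2 and 0.53 in no.2 without no.2 replicate 2, and 0.15 and 0.20 with normexp correction. Over the 10 members well above background on every array, which leaves out the genes that passed through their bright group, the medians were -0.18 and 0.20, beside -0.23 and -0.15 over the genes chosen in the same way, and in a fit of such genes alone 2 of the 10 rose and 3 fell in no.1 while 3 rose and 1, Pcdha8, fell in no.2 (adjusted p = 0.0403). Both contrasts use the same 2 control arrays, so they are not independent of each other.

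Pcdhb21 had the largest log2 fold change among the members in both contrasts. Its scaled log2 level was 0.33 and 0.96 in no.1, 0.27 and 0.88 in no.2, and -2.38 and -2.58 in the control. All 4 tamoxifen-exposed arrays lay above both control arrays, with a wide gap. The log2 fold change was 3.12 ± 0.31 (SE) for no.1, an 8.72-fold difference (limma adjusted p = 0.00225), and 3.06 ± 0.31 for no.2, an 8.32-fold difference (adjusted p = 0.004). Unscaled processed signals showed the same order, at 121 and 166 in no.1, 66.6 and 105 in no.2, and 6.56 and 5.65 in the control. Pcdhb21 was called higher in 17 of 17 alternative analyses of each contrast, with log2 fold changes from 1.16 to 5.06 for no.1 and from 1.10 to 4.34 for no.2.

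Pcdhb20, the neighbour of Pcdhb21 in the cluster, had scaled log2 levels of -1.86 and -1.49 in no.1, -1.36 and -1.51 in no.2, and -4.45 and -2.57 in the control. The lower control array was not well above background, and the 2 control arrays differed from each other by more than any pair within no.1 or no.2. The log2 fold change was 1.83 ± 0.58 for no.1 (limma adjusted p = 0.0423) and 2.08 ± 0.58 for no.2 (adjusted p = 0.0437). Without that control array, control replicate 1, it was 0.90 (adjusted p = 0.0965) for no.1 and 1.14 (adjusted p = 0.0884) for no.2, and with control replicate 2 left out instead the log2 fold changes were 2.77 and 3.02. Both calls also ended without any 1 of the no.1 or no.2 arrays, where the adjusted p was 0.0834 to 0.165 for no.1 and 0.0789 to 0.146 for no.2, and with normexp correction or without the filter on dim probes.

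Pcdhb4, Pcdhb5 and Pcdhb7 were bright enough to measure in tamoxifen-exposed cells and not in the control, where none of them was well above background on either array. Pcdhb4 had processed signals of 12.2 and 9.98 in no.1, 6.32 and 10.8 in no.2, and 0.911 and 0.927 in the control. Set against the lowest signal that counted as well above background on the control arrays, it was at least 1.1-fold higher in no.2, and no fold can be given for no.1 (limma adjusted p = 0.00368 for no.1 and 0.00502 for no.2). That lowest signal is a limit of the array and not of each probe. On no.2 replicate 1 it was 4.79, yet Pcdhb5 at 5.33 was not well above background there. The folds given as "at least", here and below, hold only against that array limit, and those near 1 would end with a slightly higher one. The p-values set a measured signal against control spots at the floor, so they carry no size. The control signals of all these genes lay near 1, well under the other 4 arrays.

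Pcdhb5 had processed signals of 6.6 and 7.19 in no.1, 5.33 and 7.14 in no.2, and 1.07 and 1.08 in the control. Of the no.2 arrays, replicate 1 was not well above background for this probe. Pcdhb7 had 5.08 and 9.6 in no.1, 5.41 and 6.94 in no.2, and 0.92 and 0.923 in the control. For neither gene did the bright arrays exceed the scaled detection limit of the control arrays, so no direction or size is drawn from the fit, although it called both (limma adjusted p = 0.00789 in no.1 and 0.0065 in no.2 for Pcdhb5, and 0.0198 and 0.016 for Pcdhb7). The Pcdhb7 calls ended without either control array (adjusted p = 0.072 and 0.072 in no.1, 0.0624 and 0.0652 in no.2) and, in no.2, without no.2 replicate 2 (adjusted p = 0.0774).

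Pcdhb17 and Pcdhb6 were measurable on every array. Pcdhb17 had scaled log2 levels of -0.52 and -0.14 in no.1, -0.41 and 0.51 in no.2, and -1.36 and -1.14 in the control. It rose by 1.30 ± 0.34 in no.2, a 2.46-fold difference (limma adjusted p = 0.0377), while no.1 differed from the control by 0.92 ± 0.34 (adjusted p = 0.0677). The 4 exposed arrays lay above both controls. Pcdhb6 had scaled log2 levels of -1.52 and -0.88 in no.1, -1.05 and -0.36 in no.2, and -1.78 and -2.04 in the control. Its log2 fold change was 1.20 ± 0.34 in no.2, a 2.3-fold difference (adjusted p = 0.0435), and 0.71 in no.1 (adjusted p = 0.125). Without no.2 replicate 2 the no.2 values were 0.84 for Pcdhb17 (adjusted p = 0.0931) and 0.85 for Pcdhb6 (adjusted p = 0.154), so both calls ended there, as they did with any 1 control or no.1 array left out.

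**Figure D2:**
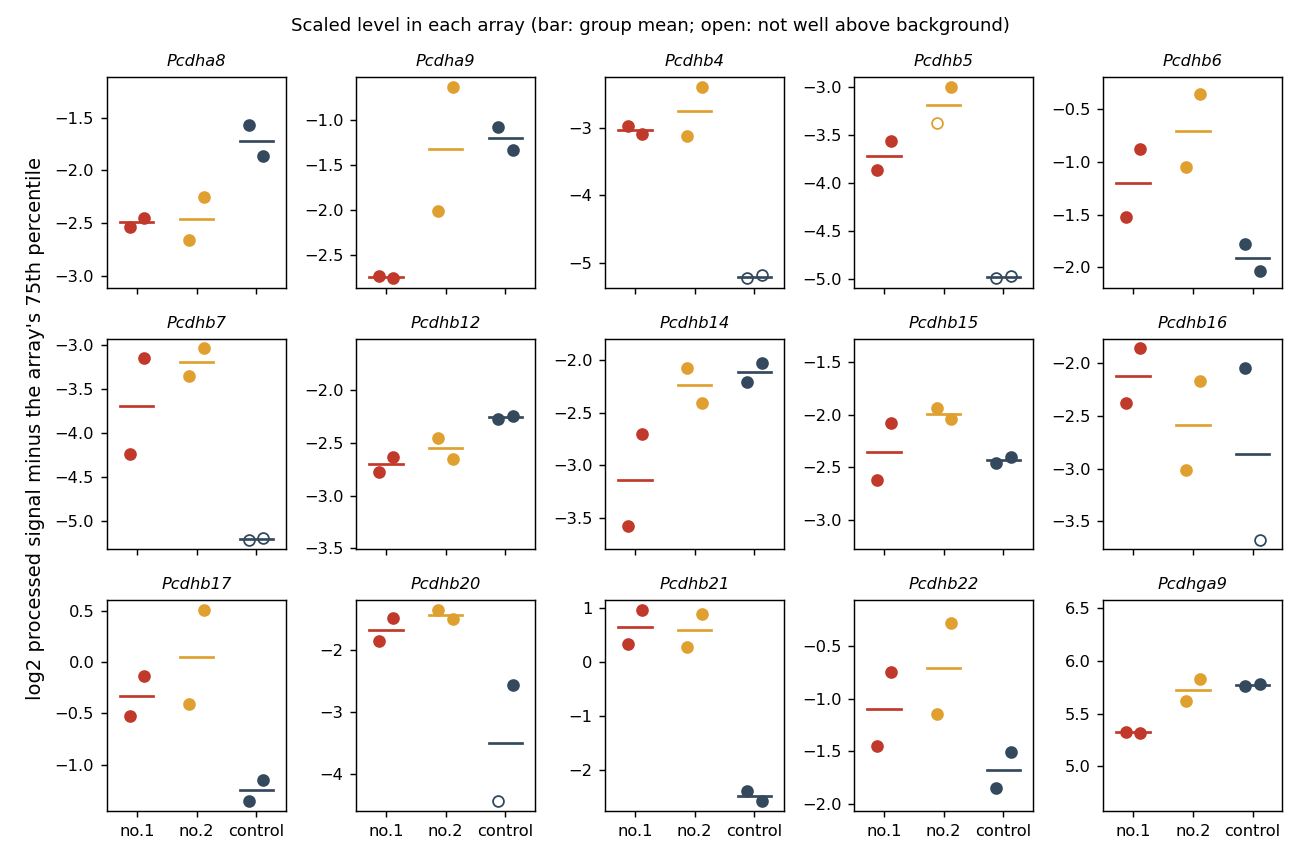
Scaled log2 level (log2 processed signal less the 75th percentile) of the 15 tested members in each array of no.1 (red), no.2 (yellow) and the control (dark), with the group mean as a bar and open symbols for probes not well above background. Pcdhb21 lies between 0.27 and 0.96 on the 4 tamoxifen-exposed arrays and at -2.38 and -2.58 in the control. Vertical scales differ between genes and span at least 2 log2 units.

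The remaining beta genes were not called higher. Pcdhb14 fell in no.1: its scaled log2 level was -3.57 and -2.71 in no.1, -2.07 and -2.41 in no.2, and -2.21 and -2.02 in the control. The no.1 arrays lay below all others, and the log2 fold change was -1.02 ± 0.33 (limma adjusted p = 0.0429). It was -0.59 (adjusted p = 0.143) without no.1 replicate 1, and -0.13 (adjusted p = 0.787) for no.2 with all arrays. Pcdhb12 differed from the control by -0.44 in no.1 (adjusted p = 0.102) and by -0.29 in no.2 (adjusted p = 0.277), Pcdhb15 by 0.08 (adjusted p = 0.801) and 0.44 (adjusted p = 0.201), and Pcdhb22 by 0.58 (adjusted p = 0.246) and 0.96 (adjusted p = 0.102). Pcdhb16 spread widest: its control arrays were at -2.04 and -3.68, the second of them not well above background, and its log2 fold changes of 0.74 in no.1 and 0.27 in no.2 missed the threshold (adjusted p = 0.32 and 0.739).

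The detected alpha genes were not called higher. Both Pcdha8 and Pcdha9, measurable on every array, fell in no.1. Pcdha8 had scaled log2 levels of -2.53 and -2.46 in no.1, -2.66 and -2.26 in no.2, and -1.57 and -1.87 in the control, so both controls exceeded every exposed array. The log2 fold change was -0.78 ± 0.23 (limma adjusted p = 0.0353) in no.1 and -0.74 (adjusted p = 0.0583) in no.2. With the replicate number as a block, the no.1 call ended (adjusted p = 0.0536). Pcdha9 had -2.74 and -2.77 in no.1, -2.01 and -0.63 in no.2, and -1.08 and -1.33 in the control. Its no.1 arrays were the lowest of the 6 and its no.2 arrays lay on either side of the control, with log2 fold changes of -1.55 ± 0.44 (adjusted p = 0.0311) and -0.12 (adjusted p = 0.856). These falls, and that of Pcdhb14, were relative to the 75th percentile: scaled to the spike-ins, no.1 against the control came to 1.16 for Pcdha8, 0.39 for Pcdha9 and 0.91 for Pcdhb14. None of the 3 kept its call when any control array or any no.1 array was left out, except Pcdhb14 without no.1 replicate 2, and none was called lower with quantile, median or normexp scaling. Pcdhac2, an alpha-cluster isoform of the C type that the symbol rule does not take, had 1 probe above background on all arrays. Its log2 fold change was -1.19 ± 0.35 in no.1 (adjusted p = 0.033 in a fit of every probe) and -0.84 in no.2 (adjusted p = 0.115), while Pcdhac1 was well above background nowhere. The Pcdhac2 values are relative to the 75th percentile, and no spike-in value is given for it.

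Of the gamma genes, Pcdhga9 was the tested member, and its 2 probes differed. The probe of higher mean signal had scaled log2 levels of 5.33 and 5.32 in no.1, 5.62 and 5.83 in no.2, and 5.76 and 5.78 in the control. No.1 lay just below the other 4 arrays, and the log2 fold changes were -0.45 (limma adjusted p = 0.0973) in no.1 and -0.04 (adjusted p = 0.876) in no.2. The second probe had 0.25 and 0.53 in no.1, 1.59 and 0.92 in no.2, and 2.16 and 2.20 in the control. All exposed arrays were below both controls, and in the fit of every probe it fell by 1.79 on the log2 scale in no.1 (SE 0.28, adjusted p = 0.00537), against -0.92 in no.2 (adjusted p = 0.0537). Relative to the spike-ins this order reversed. The second probe was then at -1.395 and -1.17 in no.1, -1.021 and -1.112 in no.2, and -1.449 and -1.416 in the control. Both probes carry the same gene by accession, so whether either reads exons shared with other gamma transcripts was not tested.

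Counts of called members moved with the scaling more than with the choice of arrays. Scaled to the spike-ins, 14 of 15 members were called higher and none lower in no.1, where 82.3% of all genes were called higher and 1.83% lower, and 12 were called higher and none lower in no.2, where 65.2% and 2.32% were. With both control arrays averaged into 1 sample, 4 members were called higher and none lower in each contrast, Pcdhb4, Pcdhb5, Pcdhb20 and Pcdhb21 in both, beside 9.8% of all genes higher and 11.2% lower in no.1 and 2.5% and 2.9% in no.2. Without regard to the test, 8 of 15 members had both no.1 arrays above both controls and 5 had both below (36.7% and 44.7% of all genes), and 9 and 2 members did so in no.2 (33.2% and 41.3%).

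**Figure D3:**
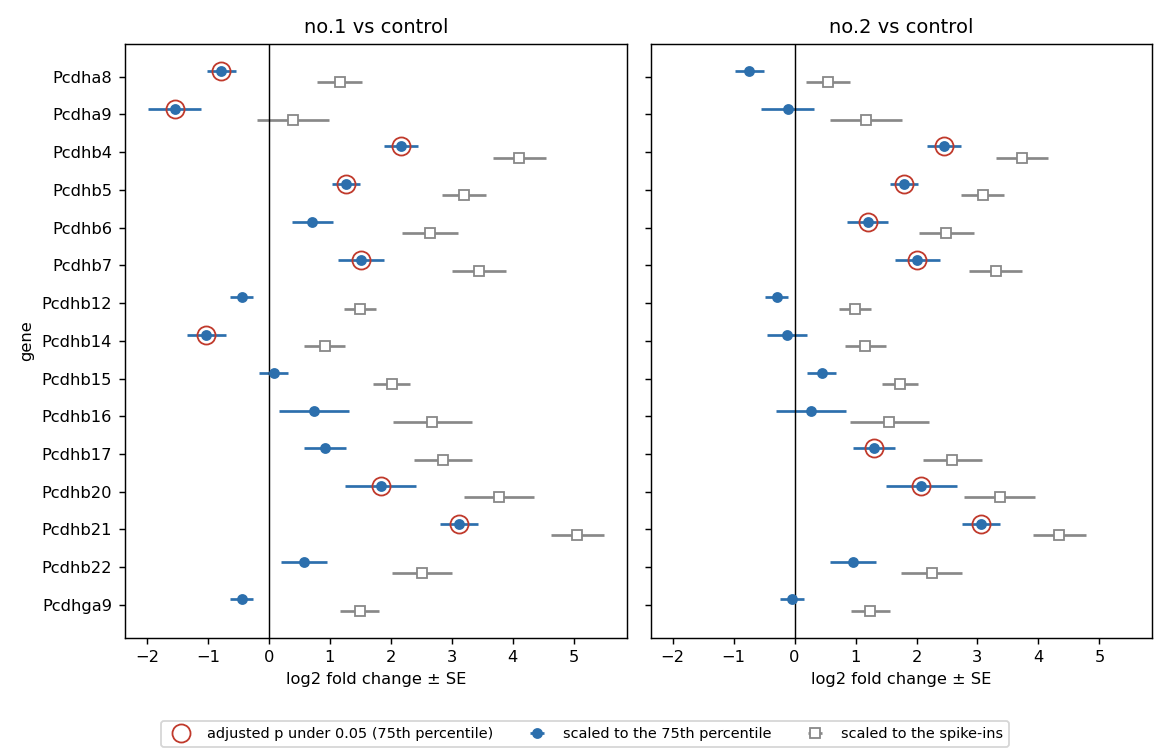
Log2 fold change ± SE of the 15 tested members against the control, for no.1 (left) and no.2 (right), scaled to the 75th percentile (filled circles) or to the spike-ins (open squares), with red rings on those called at the 75th percentile. Pcdhb21 is farthest to the right in both panels, at 3.12 and 3.06, and the spike-in values lie to the right of the others throughout. Pcdhb4, Pcdhb5 and Pcdhb7 are set against control spots not well above background, so their points give no size.

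Between medium with and medium without tamoxifen, no member was called. Comparing no.1 with no.2, limma called 0 of 15 members and 0 of all 23058 genes (0% in either direction), whereas 3824 genes (16.6%) had an unadjusted p under 0.05, 2 members among them. Those were Pcdha9, with a log2 difference of -1.43 ± 0.44 (unadjusted p = 0.0173, adjusted p = 0.282), and Pcdhb14, with -0.90 ± 0.33 (unadjusted p = 0.0321, adjusted p = 0.283). Pcdhb21, so far above the control in both groups, differed between them by 0.07 ± 0.31 (adjusted p = 0.927). Pcdhb21 and Pcdhb16, at 0.47, were the only members with a positive difference. The median over the 15 was -0.38, beside -0.01 over all genes, and scaled to the spike-ins it was 0.27 beside 0.64. Both no.1 arrays lay below both no.2 arrays in 5 members, Pcdha9, Pcdhb5, Pcdhb14, Pcdhb15 and Pcdhga9, and above them in 0 (25.4% and 22.5% of all genes). With 2 arrays a group, these misses do not show that the groups had like levels: the SE of a difference ranged from 0.19 to 0.58 among the members.

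**Figure D4:**
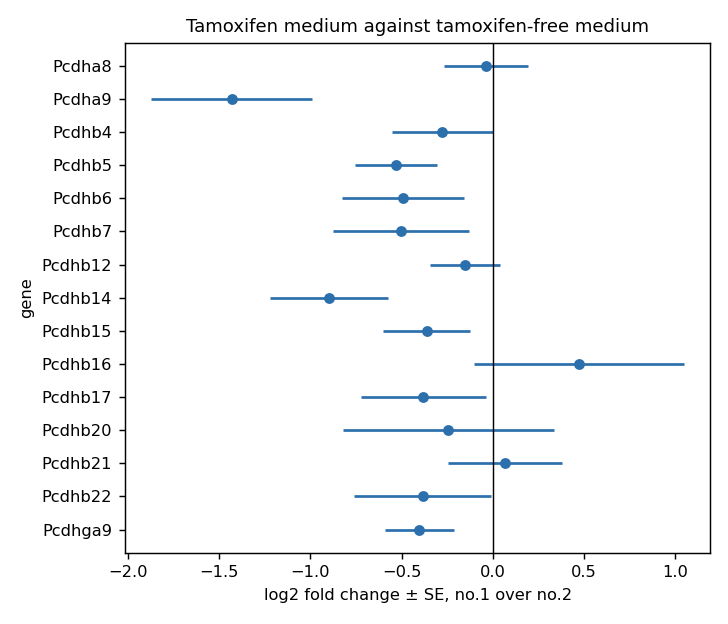
Log2 fold change ± SE of the 15 tested members, no.1 (medium with tamoxifen) over no.2 (medium without), at the 75th-percentile scaling. Most points lie left of 0, Pcdha9 farthest at -1.43, and none was called.

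The related genes were described by lists, chosen with earlier results of these data known, as counts over the same fits. The non-clustered protocadherins, relatives outside the clusters that mostly act as single adhesion molecules, had 9 of 12 genes tested. In no.1, 6 were called higher and 1 lower, and in no.2, 3 higher and 1 lower, with medians of 1.09 and 0.99. The shares were 66.7% higher and 11.1% lower in no.1, beside 21.4% and 26.4% of all genes. In no.2 they were 33.3% and 11.1%, beside 12.1% and 16.2%. Pcdh20, Pcdh9, Pcdh17, Pcdh10 and Pcdh15 were well above background on no control array. They could enter the test only by being bright in exposed cells, so these counts and medians are a description and support no statement about the list. Pcdh20 was at least 3.13-fold higher in no.1 (limma adjusted p = 0.00836) and was not called in no.2 (adjusted p = 0.114), Pcdh9 at least 1.15-fold in no.1 (adjusted p = 0.0121) and 1.23-fold in no.2 (adjusted p = 0.0185), and Pcdh17 at least 1.77-fold in no.2 (adjusted p = 0.0156) with no fold for no.1 (adjusted p = 0.0245), each set against controls not well above background. Pcdh19, mutated in a human epilepsy, rose by 1.00 in no.1 (adjusted p = 0.0124) and by 0.99 in no.2 (adjusted p = 0.022) on the log2 scale. Pcdh1, the next protocadherin along the chromosome after the gamma cluster and an adhesion molecule of airway epithelium, fell by 1.74 (adjusted p = 0.00284) and by 1.27 (adjusted p = 0.00996). Its direction flipped under spike-in scaling, to 0.20 in no.1 and 0.01 in no.2.

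The list named classical cadherins also held other genes with a Cdh symbol, such as Cdh13 and Cdh16. It had 11 of 23 genes tested, with medians of -0.64 in no.1 and -0.58 in no.2. Of the 11, 2 rose and 6 fell in no.1, and 2 rose and 2 fell in no.2. That is 18.2% higher and 54.5% lower in no.1, beside 21.4% and 26.4% of all genes. The 18.2% and 18.2% in no.2 were near the 12.1% and 16.2% of all genes. Cdh15, the cadherin of muscle progenitors, fell by 3.87 (limma adjusted p = 0.00314) in no.1 and by 3.06 (adjusted p = 0.00952) in no.2, with 1 of 2 arrays of each of these groups well above background. Cdh16 fell by 1.94 in no.1 (adjusted p = 0.00595) and by 1.57 in no.2 (adjusted p = 0.0186), and Cdh6 by 2.13 in no.1 (adjusted p = 0.00596), above background there on 1 of 2 arrays, with a value of -1.04 in no.2 (adjusted p = 0.0646). Cdh3, P-cadherin, rose by 1.00 (adjusted p = 0.0102) and 1.34 (adjusted p = 0.00938), and Cdh13, the cadherin with a lipid anchor, by 0.66 (adjusted p = 0.0454) and 1.08 (adjusted p = 0.0182). Scaled to the spike-ins, 7 of the 11 were called higher and 1 lower in no.1, and 3 higher and 1 lower in no.2. With that scaling 82.3% of all genes were called higher and 1.83% lower in no.1, and 65.2% and 2.32% in no.2.

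The atypical cadherins, the Fat, Dachsous and Celsr families of planar polarity and their relatives, had 10 of 15 genes tested. In no.1, 2 rose and 5 fell, and in no.2, 2 rose and 3 fell, with medians of -0.89 and -0.08. The 20% called higher in no.1 were near the 21.4% of all genes, while 50% were lower, beside 26.4%. In no.2 the shares were 20% and 30%, beside 12.1% and 16.2%. Celsr3, a seven-pass cadherin of axon guidance, was at least 4.65-fold lower in no.1 (limma adjusted p = 0.00651) and at least 2.95-fold lower in no.2 (adjusted p = 0.0188), where it was not above background. Fat2 fell by 1.27 (adjusted p = 0.00543) and by 1.07 (adjusted p = 0.0153), and Cdhr2 by 1.27 (adjusted p = 0.00928) and by 1.01 (adjusted p = 0.0292), and both were above 0 when scaled to the spike-ins. Fat4 rose by 1.30 (adjusted p = 0.0362) and 1.71 (adjusted p = 0.0259), and its ligand Dchs1 by 2.05 in no.2 (adjusted p = 0.0152), with a value of 0.37 in no.1 (adjusted p = 0.439). Scaled to the spike-ins, 7 of the 10 were called higher and 0 lower in no.1, and 5 and 1 in no.2. The shares of all genes were then 82.3% and 1.83% in no.1, and 65.2% and 2.32% in no.2.

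Genes for promoter choice, CTCF and the cohesin complex with its loaders and regulators, were all measurable, 15 of 15. In no.1, 12 rose and 1 fell, and in no.2, 5 rose and none fell, with medians of 1.22 and 0.65. The shares were 80% higher and 6.67% lower in no.1, beside 21.4% and 26.4% of all genes. In no.2 they were 33.3% and 0%, beside 12.1% and 16.2%. Ctcf itself rose by 1.01 in no.1 (limma adjusted p = 0.0113) and by 0.72 in no.2 (adjusted p = 0.0464). Among cohesin genes, Pds5b, which regulates release of the ring, rose by 2.21 (adjusted p = 0.00169) and 1.59 (adjusted p = 0.00588), and Rad21, which closes the ring, by 1.87 (adjusted p = 0.00276) and 1.46 (adjusted p = 0.00827). The ring subunit Smc1a rose by 1.46 (adjusted p = 0.00428) and 0.79 (adjusted p = 0.0339), and Cdca5, the cohesion factor sororin, by 1.69 (adjusted p = 0.0049) and 1.51 (adjusted p = 0.0121). Smc3 rose by 1.68 in no.1 (adjusted p = 0.00418), with a value of 0.74 in no.2 (adjusted p = 0.0573). No gene of this list was called between no.1 and no.2, where the median was 0.66. Cohesin also holds sister chromatids in dividing cells, and how many cells were dividing was not tested. Esco2, counted among the rises in no.1, was well above background on no control array, so it entered the test only through exposed cells. With the control arrays averaged, 9 rose in no.1 and 1 in no.2, beside 9.8% and 2.5% of all genes called higher.

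The list for silencing of unused clustered promoters held DNA and H3K9 methyltransferases, their partners and other regulators such as Rest. It also held Tet1, Tet2 and Tet3, which act against DNA methylation and were not called in either group. Of its 20 genes, 19 were tested. In no.1, 11 rose and 1 fell, and in no.2, 10 rose and none fell, with medians of 0.72 and 0.70. The shares were 57.9% higher and 5.26% lower in no.1, beside 21.4% and 26.4% of all genes. In no.2 they were 52.6% and 0%, beside 12.1% and 16.2%. Smchd1, whose loss in mice is known to raise clustered protocadherin transcripts, rose by 2.07 in no.1 (limma adjusted p = 0.00223) and by 1.11 in no.2 (adjusted p = 0.0162). Setdb1, the H3K9 methyltransferase known to act on this locus in mouse neurons, rose by 1.60 (adjusted p = 0.00339) and 1.41 (adjusted p = 0.00804), and its cofactor Atf7ip by 1.11 (adjusted p = 0.00647) and 1.00 (adjusted p = 0.0156). Cbx3, a reader of H3K9 methylation, rose by 1.94 (adjusted p = 0.00253) and 1.47 (adjusted p = 0.00804). The maintenance DNA methyltransferase Dnmt1 rose by 1.80 (adjusted p = 0.00407) and 1.32 (adjusted p = 0.0157), and Dnmt3b, which methylates these promoters early in development, by 1.36 (adjusted p = 0.00661) and 1.34 (adjusted p = 0.013). With the control arrays averaged, 6 of the 19 rose in no.1 and 0 in no.2, beside 9.8% and 2.5% of all genes called higher.

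Of the tested genes that flank the clusters or lie between them, 5.88% were called higher and 35.3% lower in no.1, beside 21.4% and 26.4% of all genes. In no.2 the shares were 0% and 17.6%, beside 12.1% and 16.2%. Of 19, 17 were tested, and 1 rose and 6 fell in no.1 while none rose and 3 fell in no.2, with medians of -0.29 and -0.03. Taf7, a general transcription factor gene between the beta and gamma clusters, and Diaph1, the formin gene beyond the gamma cluster, are named for their position. Taf7 differed from the control by 0.35 in no.1 (limma adjusted p = 0.3) and 0.04 in no.2 (adjusted p = 0.921), and Diaph1 by 0.23 (adjusted p = 0.457) and 0.04 (adjusted p = 0.915). Of the other genes in the list, Fchsd1 fell by 1.81 (adjusted p = 0.00499) and Rell2 by 1.35 (adjusted p = 0.0166) in no.1, with values of -0.80 (adjusted p = 0.069) and -0.56 (adjusted p = 0.212) in no.2. Ndufa2, a subunit of respiratory complex I, fell by 0.84 in no.1 (adjusted p = 0.0169) and by 0.84 in no.2 (adjusted p = 0.0283), and Zmat2 by 0.66 (adjusted p = 0.0334) and by 0.72 (adjusted p = 0.0409). The called directions of these 4 genes flipped under spike-in scaling, and 13 of the 17 were then called higher in no.1 and 12 in no.2. Of all genes, 82.3% were called higher in no.1 and 65.2% in no.2 with that scaling.

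Proteins that cut or bind clustered protocadherins were mixed. The list of proteolysis genes, gamma-secretase with the proteases that shed the extracellular part, had 8 of 9 genes tested. Of these, 3 rose and 4 fell in no.1 and 1 rose and 2 fell in no.2. The shares were 37.5% higher and 50% lower in no.1, beside 21.4% and 26.4% of all genes. In no.2 they were 12.5% and 25%, beside 12.1% and 16.2%. Psen2, a catalytic subunit of gamma-secretase, fell by 1.70 (limma adjusted p = 0.0035) and by 1.14 (adjusted p = 0.0161), and Psenen, its activator, by 1.00 (adjusted p = 0.0101) and by 0.95 (adjusted p = 0.0205). The scaffold genes split, with Aph1b higher by 1.88 (adjusted p = 0.00635) and 1.24 (adjusted p = 0.0326) and Aph1a lower by a log2 change of -0.94 in no.1 (adjusted p = 0.01) and at -0.41 in no.2 (adjusted p = 0.141). Psen2, Psenen and, in no.1, Aph1a were above 0 when scaled to the spike-ins. Of 17 tested cytoplasmic partners, 10 rose and 1 fell in no.1 and 3 rose and 1 fell in no.2, with medians of 0.71 and 0.34. That is 58.8% and 5.88% in no.1, beside the same 21.4% and 26.4% of all genes. In no.2 it is 17.6% and 5.88%, beside 12.1% and 16.2%. Ptk2b, the kinase PYK2 that clustered protocadherins bind and inhibit, fell by 1.76 (adjusted p = 0.00343) and by 2.05 (adjusted p = 0.00425), the first of which was 0.18 when scaled to the spike-ins. The related focal adhesion kinase gene Ptk2 rose by 1.67 (adjusted p = 0.00739) and 1.08 (adjusted p = 0.0403), with 1 of 2 control arrays above background. Wasf1, of the WAVE complex that builds branched actin, rose by 1.65 (adjusted p = 0.00346) and 1.55 (adjusted p = 0.0073), and Ctnnb1, beta-catenin, by 0.96 (adjusted p = 0.0126) and 0.88 (adjusted p = 0.0274). Prkca rose by 1.58 in no.1 (adjusted p = 0.00617), with a value of 0.71 in no.2 (adjusted p = 0.0825).

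**Figure D5:**
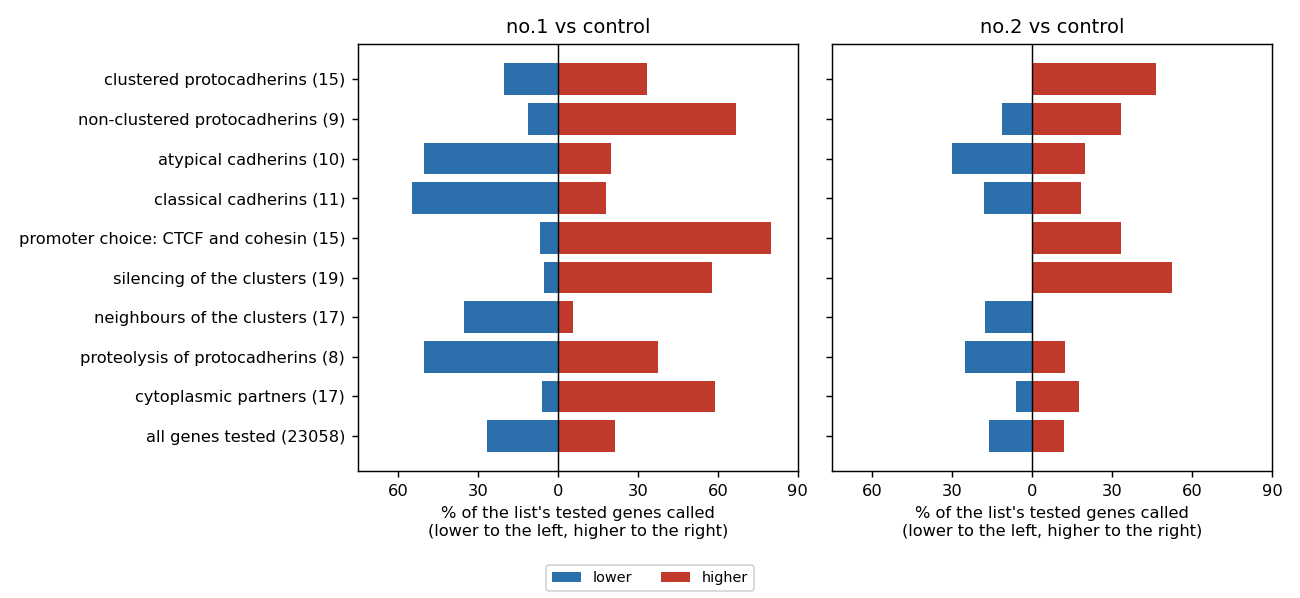
Share of the tested genes of each list, with the number tested in brackets, that were called higher (red, right) or lower (blue, left) than the control, in no.1 (left panel) and no.2 (right panel), at the 75th-percentile scaling. The bottom row gives all 23058 genes, with 21.4% higher and 26.4% lower in no.1 and 12.1% and 16.2% in no.2.

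The labelled cell type was checked with markers, because clustered protocadherins are best known from neurons. Of 9 fibroblast markers, 8 were well above background on all 6 arrays and Lum on none, and their summed signal over the 75th percentile was 1120 and 1130 in no.1, 1340 and 1400 in no.2, and 1440 and 1500 in the control. In no.1, 4 of the 8 fell and 1 rose, and in no.2, 3 fell and 1 rose. That is 50% lower and 12.5% higher in no.1, beside 26.4% and 21.4% of all genes. In no.2 it is 37.5% and 12.5%, beside 16.2% and 12.1%. Dcn, decorin, differed from the control by -3.73 in no.1 (limma adjusted p = 0.0032) and -2.30 in no.2 (adjusted p = 0.0172), Thy1 by -2.22 (adjusted p = 0.0016) and -1.91 (adjusted p = 0.00359), Pdgfra by -1.54 (adjusted p = 0.00677) and -1.08 (adjusted p = 0.0301), and Pdgfrb by -2.14 (adjusted p = 0.008) and -0.83 (adjusted p = 0.148). Pdgfra was above 0 when scaled to the spike-ins. With that scaling 4 of the 8 markers were called higher and 1 lower in no.1, and 4 higher and 0 lower in no.2. Of all genes, 82.3% were then called higher and 1.83% lower in no.1, and 65.2% and 2.32% in no.2. Fn1, fibronectin, rose by 1.23 (adjusted p = 0.00537) and 1.28 (adjusted p = 0.00938), and the collagen genes Col1a1 and Col1a2 and Vim were not called.

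Of 10 neuron markers, 8 were tested, and Rbfox3 and Nefl were well above background nowhere. In no.1, 1 rose and 5 fell, and in no.2, 1 rose and 4 fell. That is 12.5% higher and 62.5% lower in no.1, beside 21.4% and 26.4% of all genes. In no.2 it is 12.5% and 50%, beside 12.1% and 16.2%. The marker that rose was Map2, a dendritic microtubule protein, at least 12.4-fold higher in no.1 (limma adjusted p = 0.000636) and at least 8.79-fold higher in no.2 (adjusted p = 0.00133) than in the control, where it was not well above background. Stmn2 differed from the control by -4.24 (adjusted p = 0.00142) and -4.42 (adjusted p = 0.00196), and Tubb3 by -2.64 (adjusted p = 0.00103) and -1.998 (adjusted p = 0.00328). The summed neuron signal over the 75th percentile was 22.9 and 22.9 in no.1, 25.6 and 15.1 in no.2, and 38.2 and 36.9 in the control, most of it from Snap25. Scaled to the spike-ins, 4 of the 8 were called higher and 2 lower in no.1, and 1 higher and 2 lower in no.2. Of all genes, 82.3% were then called higher and 1.83% lower in no.1, and 65.2% and 2.32% in no.2. The part of these cell type markers in the protocadherin results was not tested.

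The lists of other cell types were each detected in part. Of the Schwann and glial markers, Mbp was well above background on 6 arrays and Sox10, Gfap, Ngfr and Erbb3 on none, and S100b, above background only in the control, was at least 5.28-fold lower in no.1 (limma adjusted p = 0.000784) and at least 3.36-fold lower in no.2 (adjusted p = 0.00186). Krt10 and Trp63 of keratinocytes were above background on 6 arrays and Krt5, Krt14 and Krt1 on none. Of endothelial markers, Pecam1 was so on 5 arrays, Kdr on 2, Tek on 1, and Cdh5 and Vwf on none. Of muscle markers, Acta1 was so on 6 arrays, Des on 4, and Myod1, Myog and Ckm on none, and Des differed from the control by -2.43 in no.1 (adjusted p = 0.0206). Of leukocyte markers, Itgam and Cd68 were so on 6 arrays and Ptprc, Adgre1 and Lyz2 on none. No keratinocyte, endothelial or leukocyte marker was called in either group. In bulk RNA, a change in the number of cells that express a protocadherin and a change in RNA per cell cannot be told apart.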

How the data were processed

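Total RNA from 6 samples was labelled with Cy3 and scanned on Agilent arrays, per the labels' protocols, and the authors' scanner files hold an intensity per spot (the processed signal of Feature Extraction version 9.5.1.1, per the submitters' processing notes, or 12.1.1.1, per the file headers). The deposited value table, also of intensity, matched the quantile-normalised processed signal within 1% for nearly all probes. Here log2 processed signal minus the 75th percentile of 56605 probes of each array was fitted with limma 3.58.1 in R 4.3.3, 1 mean per group, with the probe of highest mean per gene and Benjamini-Hochberg adjustment. The test was tested on simulated data. Members, lists and tests were chosen with earlier results of these data known. Every tested member was named, and of each other list up to 4 called genes of lowest p per contrast, Ctcf, Taf7 and Diaph1 being added by role or position. Symbols came from RefSeq (GRCm38.p6) for 58.3% of probes. The file headers name another mouse build, so no coordinates are given. Alternatives were normexp correction on the median signal (the mean signal was not used here), quantile, median and spike-in scaling (7 probes), the value table, other filters, every probe, both groups alone, the replicate block, averaged controls and each array left out. All arrays were on 1 slide, so a slide block could not be run.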

Additional observations from a re-analysis of the deposited data

How the results depend on the processing

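Pcdhb21 kept its direction and its call against the control under every alternative run, with no.1 and with no.2, and Pcdhb4, set against controls below background, kept its call under the 16 that fitted it. The count of called members moved more. Against 8 called in no.1, it was 2 with normexp correction, 5 with quantile scaling, 5 with the authors' values, 14 with spike-in scaling, 16 of 33 without the filter (12 of them lower), 5 of the 10 members measurable throughout, 4 with controls averaged, and 3 to 7 with 1 array left out. Against 7 called in no.2, it was 3 with normexp, 12 with spike-ins, 17 without the filter (11 of them lower), 4 of the members measurable throughout, 4 with both groups alone, 4 with controls averaged, and 3 to 6 with 1 array left out. Between no.1 and no.2 it was 8 lower without the filter, and 0 otherwise. Probes at the floor had like signals on all arrays, so their scaled level was lower on brighter arrays. Pcdha4 had processed signals of 1.05 and 1.01 in no.1 and 0.976 and 0.986 in the control. Its scaled log2 levels there were -6.52 and -6.39, and -5.13 and -5.09. The lower calls of dim probes without the filter carry this limit in every contrast. The labels tie the replicate numbers to no shared culture or day. The deviations of same-numbered arrays correlated over genes at -0.035 for no.1 with the control, -0.017 for no.2 with the control and 0.165 for no.1 with no.2. The last pair is also the one whose deposited names carry different hours for the replicates, and whether the number marks time was not settled. With the replicate block, 8 members were called in no.1 (6 higher), 8 in no.2 (8 higher) and 0 between them. The block ended the Pcdha8 call in no.1 (adjusted p = 0.0536) and no other.

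Among the tested members, at the probe of highest mean of each, the directions that reversed were as follows. For no.1 against the control, spike-ins gave 1.16 for Pcdha8, 0.39 for Pcdha9, 1.49 for Pcdhb12, 0.91 for Pcdhb14 and 1.49 for Pcdhga9, and normexp 0.005 for Pcdhb12. For no.2, spike-ins gave 0.55, 1.17, 0.99, 1.16 and 1.24 for the same genes, normexp 0.087 for Pcdha9, -0.015 for Pcdhb16 and 0.35 for Pcdhga9, median scaling 0.20 for Pcdha9, 0.025 for Pcdhb12, 0.19 for Pcdhb14 and 0.28 for Pcdhga9, quantile scaling 0.009 for Pcdhb14 and 0.32 for Pcdhga9, and the authors' values 0.009 and 0.32. Between no.1 and no.2, Pcdha8 was 0.054 with normexp, 0.058 with quantile, 0.077 with median, 0.62 with spike-ins and 0.06 with the authors' values, normexp gave 0.002 for Pcdhb5 and 0.007 for Pcdhb12, and spike-ins 0.38 for Pcdhb4, 0.12 for Pcdhb5, 0.16 for Pcdhb6, 0.15 for Pcdhb7, 0.50 for Pcdhb12, 0.29 for Pcdhb15, 0.27 for Pcdhb17, 0.41 for Pcdhb20, 0.27 for Pcdhb22 and 0.25 for Pcdhga9. The cause was not tested. With 1 array left out, signs changed within -0.19 to 0.35 (Pcdhb15) and -0.074 to 1.56 (Pcdhb16) in no.1, within -0.81 to 0.58 (Pcdha9), -0.29 to 0.042 (Pcdhb14), -0.55 to 1.09 (Pcdhb16) and -0.15 to 0.063 (Pcdhga9) in no.2, and between them within -0.24 to 0.16 (Pcdha8), -0.64 to 0.089 (Pcdhb4), -1.05 to 0.044 (Pcdhb7), -0.84 to 0.076 (Pcdhb17), -0.25 to 0.38 (Pcdhb21) and -0.81 to 0.043 (Pcdhb22). A group left with 1 array borrowed its spread from the others. With 6 arrays the precision is low throughout, and probes near background carry only a limit.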
